A study of Mus musculus with 12 samples.

Results

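The 10 cell cycle genes described here were followed in newly made and total RNA of SIM-A9, a line of mouse microglia (strain C57BL/6), the macrophages of the brain. They were chosen by symbol: the D-type cyclins Ccnd1, Ccnd2 and Ccnd3, the E-type cyclin Ccne1, and the mitotic genes Ccna2, Ccnb1, Ccnb2, Cdc20, Plk1 and Aurka. All 10 of 10 symbols matched 1 row each among the 30994 genes counted. On GRCm38 the D-type cyclin genes lie at chr7:144929931-144939925 (Ccnd1), chr6:127125162-127152193 (Ccnd2) and chr17:47505051-47599691 (Ccnd3), and Ccne1 at chr7:38097984-38107534. The mitotic genes lie at chr3:36564865-36572150 (Ccna2), chr13:100778650-100786570 (Ccnb1), chr9:70407692-70421547 (Ccnb2), chr4:118432901-118437352 (Cdc20), chr7:122159439-122169873 (Plk1) and chr2:172356190-172370535 (Aurka). All 10 are annotated as protein-coding. Cells were cultured with 10 µM polymyxin B for 1 h, an antibiotic that binds bacterial endotoxin, and all 4 groups shared this step. Then came 1 h with DMSO, the solvent, or with 10 µM C13, a kinase inhibitor. TDP-43 aggregates or sham aggregates followed at 5 µg/mL; TDP-43 is an RNA-binding protein that forms deposits in neurodegenerative disease. After 2.5 h with aggregates, 100 µM 4-thiouridine was added for 90 min, a uridine analog taken up into RNA as it is made. The 4 groups, with 3 libraries each, were sham after DMSO, TDP-43 after DMSO, sham after C13 and TDP-43 after C13. The labels call the 3 libraries of a group biological replicates of 1 cell line and do not say how the cultures were kept apart.

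Cyclins are the regulatory partners of cyclin-dependent kinases (CDKs), and their changing levels carry a cell through its cycle. D-type cyclins bind CDK4 and CDK6, respond to growth factors and help to inactivate the retinoblastoma protein; their messengers and proteins are known to be short-lived. Cyclin E then acts with CDK2 at the entry into S phase, cyclin A in S and G2 phase, and B-type cyclins with CDK1 at mitosis. Plk1 and Aurka are kinases of mitotic entry and of the spindle, and Cdc20 activates the anaphase-promoting complex, the ubiquitin ligase that ends mitosis. The mitotic genes are repressed in resting cells through the DREAM complex and switched on in G2 phase through B-MYB and FOXM1. Their promoters commonly hold CCAAT boxes, which the factor NF-Y binds, and a cell cycle homology region, which DREAM binds.

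Library depth was 17436397 to 41779882 total reads, and 552042 to 2722812 reads of a library were nascent, that is, carried the label. The nascent share of a library, its nascent reads over its total reads, ran from 1.88% in sham after C13 replicate 3 to 7.11% in sham after DMSO replicate 2. TDP-43 after DMSO replicate 3 and sham after C13 replicate 3 stood apart from the other 10 libraries on the first principal component of total counts (91.7 and 93.3, the others -31.0 to -1.73) and of nascent counts. Of 12 microglia and macrophage markers all 12 had reads, at a summed 852 to 1240 CPM (counts scaled to a common library size), although P2ry12 (3.83 CPM) and Tmem119 (0.510 CPM), 2 markers of resting microglia, were low. Astrocyte markers summed to at most 1.76 CPM, neuron markers to at most 4.17 CPM and fibroblast markers to at most 0.376 CPM. Oligodendrocyte markers summed to 4.47 to 46.4 CPM, and only Mbp of these 5 genes exceeded 1 CPM. The cells are a dividing line, so the cell cycle genes were measured over a mixture of phases, and fewer cells in a phase and less RNA per cell cannot be told apart.

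Promoter sequences illustrate the elements by which the mitotic genes are known to be controlled. RefSeq windows on GRCm38.p6 matched 7 of the 10 genes; Ccnd1, Ccnd2 and Ccna2 had none in the table used. The motifs, searched on both strands in the 250 bases before each start, were CCAAT, the cell cycle homology region as TTTGAA or TTCGAA, and the E2F site as TTTGGCGC or TTTCGCGC. No match of one motif overlapped a match of another in the members' windows. Shown are the 150 bases before the start of 3 mitotic genes and of 1 D-type cyclin (its second start), read 5′ to 3′ on the gene's strand, with CCAAT and TTTGAA in capitals.
Ccnb1, chr13:100786487-100786636, - strand: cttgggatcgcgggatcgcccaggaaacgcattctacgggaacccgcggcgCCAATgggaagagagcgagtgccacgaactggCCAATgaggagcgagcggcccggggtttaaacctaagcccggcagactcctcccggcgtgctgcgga
Ccnb2, chr9:70421555-70421704, - strand: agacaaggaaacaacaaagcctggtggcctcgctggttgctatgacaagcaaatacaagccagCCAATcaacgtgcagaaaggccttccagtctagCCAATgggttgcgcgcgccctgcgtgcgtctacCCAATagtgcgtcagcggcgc
Cdc20, chr4:118437344-118437493, - strand: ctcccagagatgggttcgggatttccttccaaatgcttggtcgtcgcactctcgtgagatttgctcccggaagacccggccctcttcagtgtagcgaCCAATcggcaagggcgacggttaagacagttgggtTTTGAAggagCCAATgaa
Ccnd3, chr17:47593317-47593466, + strand: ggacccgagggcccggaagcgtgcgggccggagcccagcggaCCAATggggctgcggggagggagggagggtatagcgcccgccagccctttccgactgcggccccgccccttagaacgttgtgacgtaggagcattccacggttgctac
Within the 250 bases, Ccnb2 held 3 CCAAT boxes, Ccnb1, Cdc20 and Aurka held 2 each, and Plk1 held 1. In Ccnb2 the 3 boxes began 87, 54 and 21 bases before the start, and in Ccnb1 the pair began 99 and 67 bases before it. Ccnd3 held 1 box at its second start and 0 at its first, and Ccne1 held 0. Among all 32851 promoter windows of the same length, 33.9% held at least 1 box and 10.1% held 2 or more. The letters TTTGAA lay 18 bases before the start in Cdc20 and 167 bases before it in Ccnb2, and 17.2% of all windows held a cell cycle homology region so defined. In the 50 bases after the start the same letters began at base 4 in Ccnb2, base 30 in Plk1 and base 32 in Aurka. Over the whole 300 bases, 19.2% of all windows held a cell cycle homology region so defined, and Ccnb1 held 0. None of the 7 genes with a window held either E2F motif before its start. Only 0.655% of all windows did, a share too low for this to set the members apart. These are matches of letters, not measured binding.

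Total RNA of the members spanned a wide range of levels. Reads came from messenger 3′ ends, so the CPM scale was compared between genes without division by length. Ccnd3, the D-type cyclin prominent in blood cells, was the highest member in each of the 12 libraries, at 667 to 1116 CPM (median 820). Ccnd2 (390 to 540 CPM, median 464) and Ccnb1 (346 to 479 CPM, median 393), the main B-type cyclin, came next and overlapped. Ccna2 (175 to 286 CPM, median 216), Ccnd1 (120 to 199 CPM, median 160), Plk1 (115 to 233 CPM, median 156) and Aurka (81.1 to 135 CPM, median 112) followed, each range overlapping its neighbour's. Ccnb2 (34.2 to 86.5 CPM, median 67.4) and Cdc20 (24.3 to 48.1 CPM, median 33.9) were lower; the range of Ccnb2 touched that of Aurka and overlapped that of Cdc20. Ccne1 was the lowest, at 3.14 to 18.8 CPM (median 11.7), below all other members in every library. The coefficient of variation over the 12 libraries was 11% to 15.6% for the 3 D-type cyclins and 12.9% to 24.3% for the 6 mitotic genes in total RNA. In nascent RNA it was 42.0% to 90.1% and 55.7% to 85.7%.

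**Figure D1:**
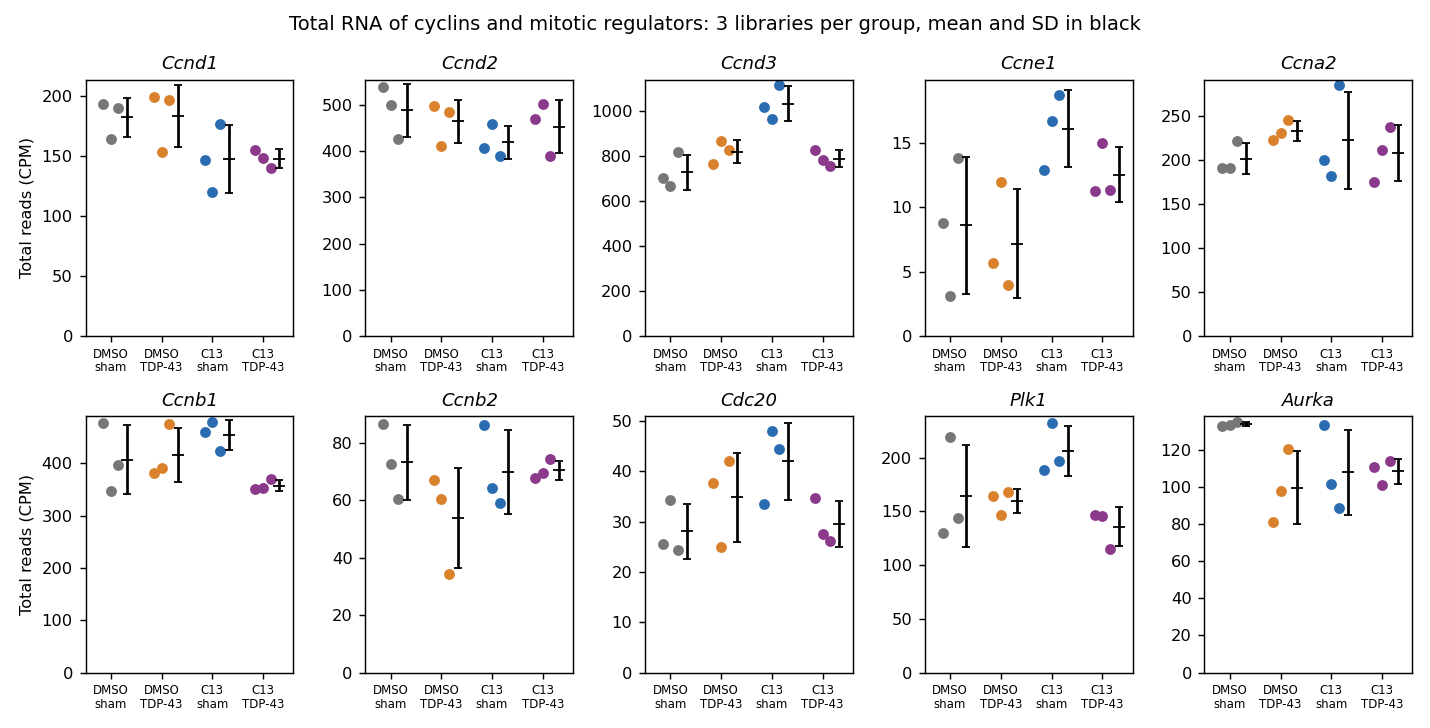
Total reads in CPM (y axis, from 0, a different scale in each panel) of the 10 genes in the 4 groups (x axis). Each point is 1 library, and the black bar gives the mean and SD of 3 libraries; Ccnd3 with C13 and sham, at 964 to 1116 CPM, lies above all libraries of the other groups.

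Several counts carry limits of their own. All 24 counts of Aurka were multiples of 3, and in 1917 of the 9932 genes that averaged more than 50 total reads a factor of at least 2 was common to all 24 counts, with no reason stated in the sources. The level of Aurka is therefore uncertain by that factor, while its share is not. All 12 nascent counts of Ccnd3, but not its total counts, were multiples of 5, as were, for a factor of 5 or more, those of 1.41% of the 7078 nascent genes tested. The nascent level of Ccnd3, its nascent share and every sum that holds it are therefore uncertain by that factor; a constant factor cancels in its fold changes between groups. On the opposite strand, annotated genes overlapped Ccnd1 (LTO1), Ccnd2 (Gm43126 and 9330179D12Rik), Ccnd3 (Bysl), Ccna2 (Exosc9), Cdc20 (Elovl1) and Plk1 (Gm44985). Whether counting used the strand is not given in the sources used here, so these 6 genes may include reads of a neighbour. Ccne1, Ccnb1, Ccnb2 and Aurka overlapped no annotated gene.

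The nascent share of a gene, its nascent reads over its total reads, rises with the part of its RNA that was made during the 90 min pulse. It was used to compare D-type cyclins with mitotic genes. Summed over the 3 D-type cyclins, the share was 4.49% ± 1.56 (SD, n = 12 libraries), and summed over the 6 mitotic genes it was 2.91% ± 1.83 (SD, n = 12 libraries). In sham after DMSO, the D-type share was 5.00%, 8.65% and 3.64% in replicates 1 to 3, and the mitotic share of the same libraries 2.90%, 7.94% and 2.36%. In TDP-43 after DMSO, they were 5.15%, 3.73% and 3.34% against 1.77%, 2.31% and 1.78%. In sham after C13, they were 3.77%, 4.78% and 4.15% against 4.67%, 1.65% and 1.04%. Each of these shares has a 95% Clopper-Pearson interval of at most ± 0.302 percentage points, which covers counting error only and takes each read as an independent molecule.

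In TDP-43 after C13, the D-type share was 4.27%, 5.12% and 2.22%, and the mitotic share 2.59%, 3.08% and 2.84%. The D-type share was thus the higher one in 10 of 12 libraries, and the exceptions were sham after C13 replicate 1 and TDP-43 after C13 replicate 3. The log2 ratio of the D-type to the mitotic share averaged 0.75 ± 0.71 (SD, n = 12 libraries), from -0.35 to 2.00. By group, it was 0.51 ± 0.35 in sham after DMSO, 1.05 ± 0.44 in TDP-43 after DMSO, 1.08 ± 1.22 in sham after C13 and 0.37 ± 0.62 in TDP-43 after C13 (SD, n = 3 each), and the groups overlapped. This ratio is a description of chosen genes and was given no test. It was 0.47, above 0 in 9 of 12 libraries, when Ccnb1 was left out, and 0.93, above 0 in 11 of 12, when Ccnd3 was left out. Without the 2 libraries that stood apart it was 0.61, above 0 in 8 of 10. With Ccnd3 in the sum, the size of the lead depended on taking its nascent counts as deposited. With each table's counts divided by the common factor of the gene in that table, an alternative chosen after seeing the data, the D-type share was 2.72% ± 1.24 and the mitotic share 2.79% ± 1.74 (SD, n = 12 libraries), and the log2 ratio was 0.05 ± 0.68 (SD, n = 12 libraries), above 0 in 9 of 12.

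**Figure D2:**
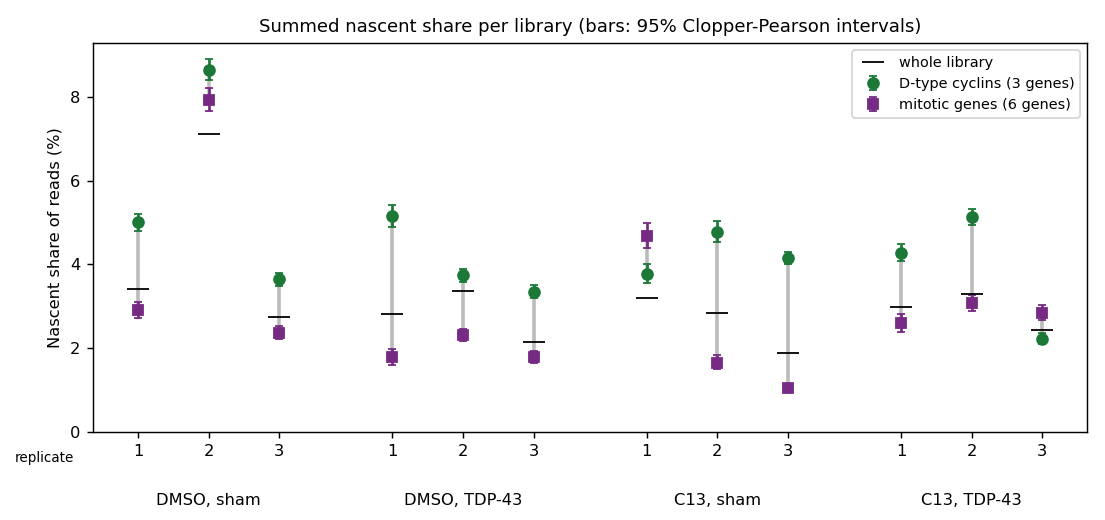
Nascent share of reads (y axis, %) in each of the 12 libraries (x axis), summed over the 3 D-type cyclins (circles) and the 6 mitotic genes (squares), with 95% Clopper-Pearson intervals and the share of the whole library (black dash). The circle lies above the square in 10 of 12 libraries, with the nascent counts of Ccnd3 as deposited.

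Single genes did not all follow their group. Ccnd1, the D-type cyclin best known as a growth factor target, had a higher share than Ccna2, Ccnb1, Ccnb2 and Plk1 in 11 of 12 libraries each. It exceeded Aurka in 6 of 12 and Cdc20 in 5 of 12. Ccnd2 exceeded Ccnb1 in 11, Ccnb2 and Plk1 in 10, Ccna2 in 9, Aurka in 7 and Cdc20 in 6 of 12 libraries. Ccnd3 exceeded Ccnb1 and Plk1 in 10, Ccnb2 in 9, Aurka in 7, Ccna2 in 6 and Cdc20 in 4 of 12. With its nascent counts divided by 5, Ccnd3 exceeded Ccnb1 in 3, Aurka in 2, Ccnb2 in 1 and the other 3 mitotic genes in 0 of 12. Cdc20 was thus the mitotic gene over which the D-type cyclins led least often, and Ccnb1 the one over which they led most often.

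Each share was then tested against that of its whole library, in an edgeR fit of nascent and other reads over all 7078 nascent genes that passed a filter on low counts. The fit scaled nascent and other reads each by their own normalisation factors. Its reference in a library can therefore differ from the unscaled share used to count libraries above or below the library. Of the members, 9 of 10 passed it; Ccne1 did not. Over all tested genes, 7.78% were called higher than their library and 27.4% lower, and the median gene lay at a log2 ratio of -0.74; a library's share is a sum over reads, so the median gene need not lie at 0. Among the members, 1 was called higher and 1 lower.

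Ccnd2 was the member called higher. Its share was 4.5%, 10.7% and 5.64% in sham after DMSO, 5.65%, 6.09% and 5.19% in TDP-43 after DMSO, 4.03%, 4.36% and 0.884% in sham after C13, and 5.69%, 6.45% and 2.57% in TDP-43 after C13. It exceeded the share of the library in 11 of 12 libraries, the exception being sham after C13 replicate 3. The log2 ratio was 0.60 ± 0.16 (SE; edgeR, adjusted p = 0.0126), which placed Ccnd2 at percentile 87.6 of the tested genes. Over all libraries, 9080 of its 170562 reads were nascent.

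Ccnd1 reached a similar ratio with a larger error. Its share was 4.25%, 12.1% and 3.88% in sham after DMSO, 7.17%, 3.33% and 4.34% in TDP-43 after DMSO, 2.24%, 2.82% and 7.20% in sham after C13, and 4.78%, 5.64% and 4.01% in TDP-43 after C13. It lay above the library in 9 of 12 libraries. The log2 ratio was 0.63 ± 0.27 (SE; edgeR, adjusted p = 0.0785), and without sham after C13 replicate 1 it was 0.81 (edgeR, adjusted p = 0.0315). The omission of no other single library led to a call of Ccnd1. Over 19 settings its log2 ratio ran from 0.42 to 1.37, with an adjusted p of 0.00125 to 0.144 (edgeR). Ccnd3 had shares of 1.71% to 6.23% (median 4.03%), above the library in 7 of 12 libraries, and a log2 ratio of 0.25 ± 0.17 (SE; edgeR, adjusted p = 0.256). With counts divided by the common factor of each table, Ccnd3 turned to -2.06 (edgeR, adjusted p = 2.02e-07), below the library in all 12 libraries, so its direction depended on that factor. In the same fit Ccnd1 was called higher at 0.68 (edgeR, adjusted p = 0.0441), Ccnd2 at 0.65 (edgeR, adjusted p = 0.0056) and Ccnb1 lower at -1.14 (edgeR, adjusted p = 0.00733).

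Ccnb1 was the member called lower. Its share was 2.18%, 5.82% and 2.01% in sham after DMSO, 1.49%, 1.45% and 0.161% in TDP-43 after DMSO, 5.17%, 0.484% and 0.136% in sham after C13, and 1.65%, 3.38% and 2.20% in TDP-43 after C13. It lay below the library in 10 of 12 libraries. The lowest values, 24 of 14876 and 25 of 18426 reads, came from the 2 libraries that stood apart. The log2 ratio was -1.19 ± 0.30 (SE; edgeR, adjusted p = 0.00868), and without those 2 libraries it was -0.71 (edgeR, adjusted p = 0.0723), so the call rested on them.

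The other mitotic genes were not called against the library. Cdc20 had shares of 1.30% to 11.5% (median 4.65%), above the library in 11 of 12 libraries, and a log2 ratio of 0.67 ± 0.36 (SE; edgeR, adjusted p = 0.154), the highest point estimate of the 9 members. It also had the fewest nascent reads of the 9, 667 over all libraries. Ccna2, with shares of 1.13% to 9.61% (median 2.77%), was near the library at a log2 ratio of -0.09 ± 0.24 (SE; edgeR, adjusted p = 0.781). Ccnb2 stood at -0.43 ± 0.36 (adjusted p = 0.342) and Plk1 at -0.37 ± 0.26 (SE; edgeR, adjusted p = 0.266).

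Aurka had shares well above and well below those of the library. Its share was 5.43%, 14.1% and 1.84% in sham after DMSO, 2.45%, 2.82% and 0.958% in TDP-43 after DMSO, 0%, 4.31% and 0.233% in sham after C13, and 6.54%, 7.05% and 5.18% in TDP-43 after C13. The value of 0, from 0 of 2310 reads in sham after C13 replicate 1, allows a share of up to 0.390%, taking the step of 3 reads as 1 count. The 3 libraries of TDP-43 after C13 lay above all of sham after C13 and all of TDP-43 after DMSO. How often the shares of other genes separate in this way was not counted. Sham after C13 also held only 0, 87 and 9 nascent reads of Aurka. Its median share was 1.19 times that of the library, but the fitted log2 ratio was -0.39 ± 0.45 (SE; edgeR, adjusted p = 0.492), so the median and the fit differed in sign.

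Ccne1, the partner of CDK2 at the entry into S phase, had too few nascent reads for a test. In 7 of 12 libraries 0 nascent reads were counted, including all 3 of sham after DMSO, where 0 of 116 reads in replicate 2 allows a share of up to 2.59%. Of its 90 nascent reads, 60 came from TDP-43 after DMSO replicate 2 and 26 from TDP-43 after C13 replicate 2. Ccne1 was left out of both summed shares.

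**Figure D3:**
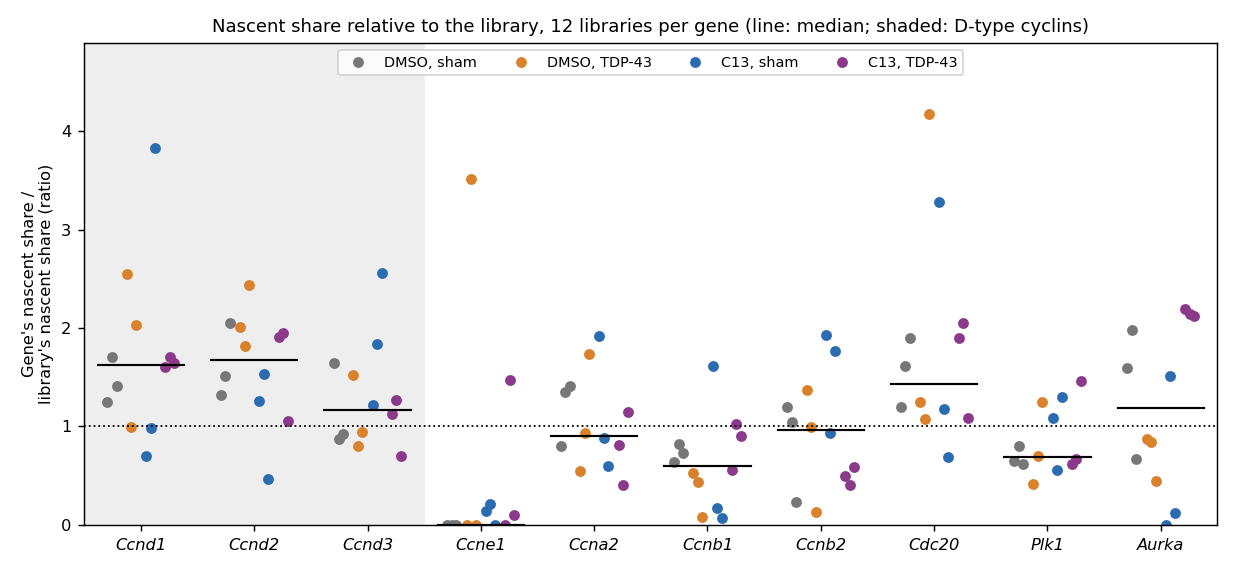
Ratio of a gene's nascent share to that of its library (y axis, from 0) for the 10 genes (x axis); each point is 1 library, coloured by group, the line is the median of 12 and the dotted line marks the library's own share. Ccnd2 and Cdc20 lie above the dotted line in 11 of 12 libraries each and Ccnb1 below it in 10.

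Which genes were called depended on the reference. Set against the median tested gene instead of the whole library, an alternative chosen after seeing the data, 17.1% of all tested genes were called higher and 4.25% lower. Of the 9 members, 8 then lay above the median gene. Ccnd1 was called higher by a log2 ratio of 1.37 (edgeR, adjusted p = 0.00125), Ccnd2 by 1.34 (edgeR, adjusted p = 1.22e-05), Ccnd3 by 0.99 (edgeR, adjusted p = 0.00046) and Cdc20 by 1.41 (edgeR, adjusted p = 0.00986). Ccnb1, at -0.45, was no longer called lower (edgeR, adjusted p = 0.318). Changing the reference shifts all genes by a constant, so the order of the 9 members was bound to stay the same. The mitotic genes other than Cdc20 lay at percentiles 33.5 to 72.4 of the tested genes, and Cdc20 and the D-type cyclins at 81.2 to 88.5. These values also take the nascent counts of Ccnd3 as deposited.

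**Figure D4:**
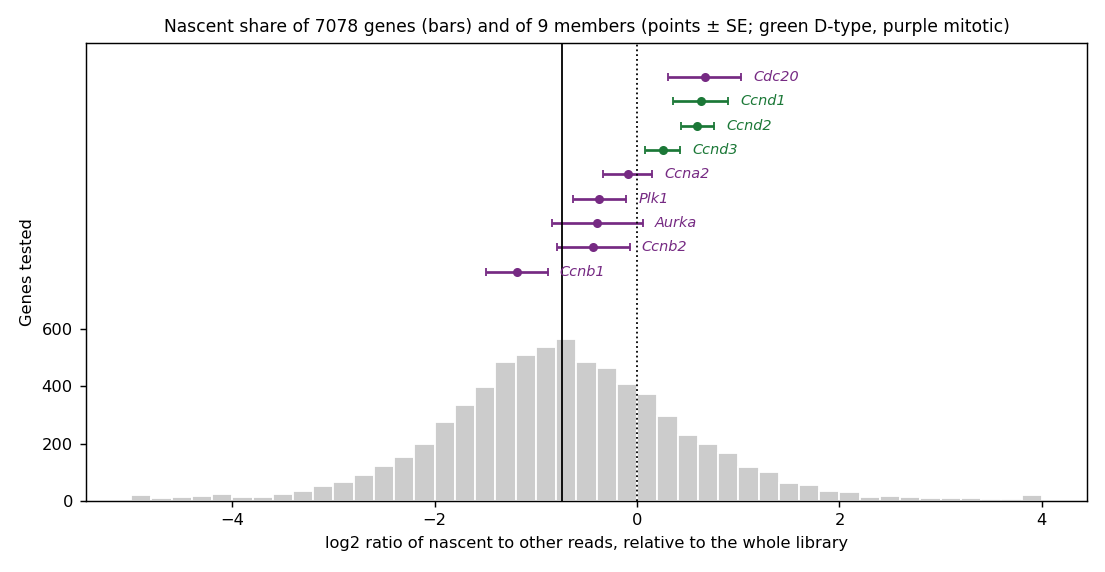
Log2 ratio of nascent to other reads relative to the whole library (x axis) for all 7078 tested genes (grey bars, y axis: number of genes, values beyond the axis gathered in the end bars) and for 9 members (points ± SE, green D-type and purple mitotic, placed above the bars in order). The solid line is the median gene at -0.74 and the dotted line the library; Cdc20 and the 3 D-type cyclins lie right of the dotted line, Ccnd3 with its nascent counts as deposited.

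A read can carry the label only where the RNA has uridine, so the uridine content near the 3′ end was set beside the shares. In the last 300 bases of the annotated transcript it was 20.3% in Ccnd1, 29.7% in Ccnd2 and 26.0% in Ccnd3, 26.7% in Cdc20, and 32% to 37.7% in the other mitotic genes, with Ccnb1 highest. The median of the tested genes was 30.0%. With the nascent counts of Ccnd3 as deposited, the members with the highest log2 ratios thus had a lower uridine content than the mitotic genes other than Cdc20. Whether uridine content bears on the shares was not tested. Across 6933 of the 7078 tested genes, Spearman's rho between uridine content and the log2 ratio was 0.028, a description across genes that share their libraries and are not independent replicates.

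The treatments were compared next, first C13 against DMSO. With sham aggregates, edgeR called 0 of 9 members in nascent counts and 0 of 10 in total counts, against 0% of 7078 nascent and 0% of 11827 total genes. With TDP-43 aggregates, the counts called were again 0 of 9 and 0 of 10, against 0% of all genes in both tables. Averaged over both aggregate arms they were also 0 of 9 and 0 of 10, against 0% of all genes, as was the call of a shift in nascent share. At an unadjusted p under 0.05, edgeR counted 1 member in nascent and 1 in total RNA with sham, 0 in both with TDP-43, and 1 and 2 in the averages. DESeq2 called 1 member in any of these comparisons, Ccnd3 in total RNA with sham, where it called 77 of 12941 genes. Over all genes, the share with an unadjusted p under 0.05 was 4.08% to 6.89% in these comparisons of counts.

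Ccnd3 had the clearest separation. Its total level was 702, 667 and 815 CPM in sham after DMSO and 1017, 964 and 1116 CPM in sham after C13. It was 764, 868 and 824 CPM in TDP-43 after DMSO and 828, 783 and 755 CPM in TDP-43 after C13. Each C13 library with sham lay above all 9 others, while the groups with TDP-43 overlapped. With sham, C13 against DMSO gave 0.50 ± 0.16 in log2 units (SE; edgeR, adjusted p = 0.754), and DESeq2 gave 0.51 (adjusted p = 0.0177).

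In nascent RNA, Ccnd3 stood at 1023, 519 and 737 CPM in sham after DMSO and at 1158, 1769 and 4632 CPM in sham after C13. The log2 fold change was 1.73 ± 0.51 (SE; edgeR, adjusted p = 0.672). The highest value was that of replicate 3, a library that stood apart, and without it the log2 fold change was 0.86. With the total table's library sizes as the scale it was 0.50, so the size of this difference depended on the scaling.

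Groups that do not overlap were no more than a few of the members. With sham, C13 and DMSO did not overlap for 1 of 10 members in total RNA (Ccnd3, higher), against 10.1% of all genes, and for 2 of 9 in nascent RNA (Ccnd3 and Cdc20, higher), against 14.3%. With TDP-43, 3 of 10 did not overlap in total RNA (Ccnb1 and Plk1 lower, Ccnb2 higher), against 13.4%, and 1 of 9 in nascent RNA (Aurka, higher), against 10.4%. Ccnb1 was at 382, 390 and 476 CPM with DMSO and at 350, 352 and 369 CPM with C13 (log2 fold change -0.22 ± 0.18, SE; edgeR, adjusted p = 0.927). Plk1 was at 164, 147 and 168 CPM with DMSO and at 146, 146 and 115 CPM with C13, which is -0.23 ± 0.21 in log2 units (SE; edgeR, adjusted p = 0.954).

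Ccnd1 and Ccne1 differed in opposite directions when the arms were averaged, and neither was called. Ccnd1 was at 194, 164 and 190 CPM in sham after DMSO, 199, 153 and 197 CPM in TDP-43 after DMSO, 147, 120 and 177 CPM in sham after C13, and 155, 149 and 140 CPM in TDP-43 after C13. The log2 fold change with C13 was -0.31 ± 0.14 (SE; edgeR, adjusted p = 0.999), and the ranges of C13 and DMSO libraries overlapped. Ccne1 was at 8.78, 3.14 and 13.8 CPM in sham after DMSO, 5.65, 12 and 3.93 CPM in TDP-43 after DMSO, 12.9, 16.7 and 18.8 CPM in sham after C13, and 11.3, 15 and 11.3 CPM in TDP-43 after C13. Its log2 fold change with C13 was 0.86 ± 0.37 (SE; edgeR, adjusted p = 0.999), again with overlapping ranges. The remaining members had averaged log2 fold changes of -0.13 to 0.22 in total RNA.

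**Figure D5:**
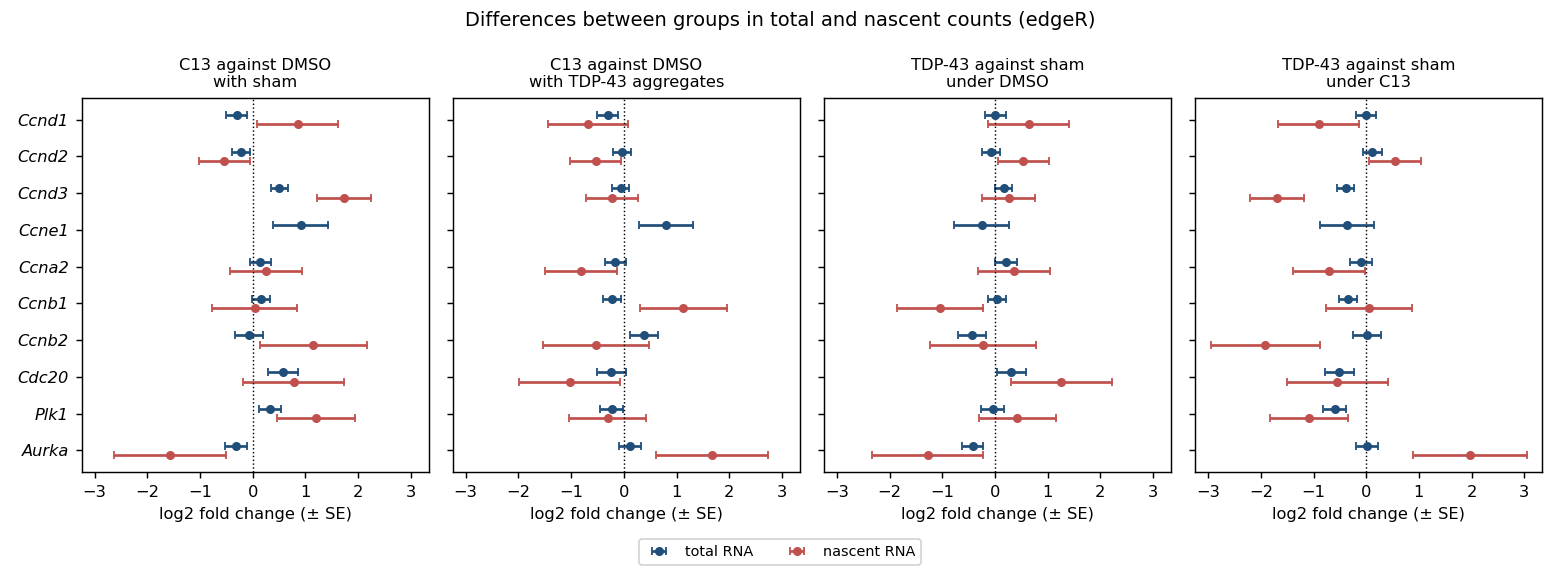
Log2 fold change (x axis, ± SE from edgeR) of each member (y axis) in total RNA (blue) and nascent RNA (red) for the 4 pairwise comparisons. No member passed an adjusted p of 0.05 in any panel, and the errors were larger in nascent than in total RNA; Ccne1 was not tested in nascent RNA.

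TDP-43 aggregates were compared with sham in the same way. Under DMSO, edgeR called 0 of 9 members in nascent and 0 of 10 in total counts, against 0% of the genes in each table, and under C13 the counts and the backgrounds were the same. Averaged over the drug arms, 0 members were called, against 0.0141% of nascent genes, 0% of total genes and 0.0141% of genes for a shift in nascent share. Unadjusted p-values under 0.05 occurred for 0 members under DMSO, for 1 in nascent and 2 in total RNA under C13, and for 0 in the averages. DESeq2 called 0 members in these comparisons. Over all genes, 3.19% to 8.84% had an unadjusted p under 0.05.

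Plk1, the kinase of mitotic entry, had the largest fitted difference in total RNA under C13. It was at 189, 233 and 197 CPM in sham after C13 and at 146, 146 and 115 CPM in TDP-43 after C13, and the 2 groups did not overlap. The log2 fold change was -0.60 ± 0.21 (SE; edgeR, adjusted p = 0.508). Under DMSO it was at 130, 219 and 144 CPM with sham and at 164, 147 and 168 CPM with TDP-43, overlapping, and differed by -0.04 ± 0.21 in log2 units (SE; edgeR, adjusted p = 0.999). Ccnb1 was at 460, 479 and 423 CPM with sham and at 350, 352 and 369 CPM with TDP-43 under C13, which is -0.35 ± 0.18 in log2 units (SE; edgeR, adjusted p = 0.6). Ccnd3 under C13 differed by -0.39 ± 0.16 in total RNA (SE; edgeR, adjusted p = 0.547). The other members in total RNA (Ccnd1, Ccnd2, Ccne1, Ccna2, Ccnb2, Cdc20 and Aurka) had log2 fold changes of -0.44 (Ccnb2) to 0.31 (Cdc20) under DMSO and of -0.51 (Cdc20) to 0.11 (Ccnd2) under C13, and 0 were called.

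Plk1, Ccnb1 and Ccnd3 were the members whose groups did not overlap in total RNA under C13, 3 of 10, against 12.8% of all genes. Under DMSO, 2 of 10 did not overlap (Ccna2 higher, Aurka lower), against 11.9%. In nascent RNA, the groups did not overlap for 3 of 9 members under C13 (Ccnd3 and Ccnb2 lower, Aurka higher), against 13.1%, and for 2 of 9 under DMSO (Ccnb1 and Aurka lower), against 10.3%. The 4 pairwise comparisons share their groups, so these members are not independent observations.

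Aurka, the spindle pole kinase, lay on opposite sides in the drug arms. In nascent RNA it was at 188, 234 and 88.4 CPM in sham after DMSO and at 65.2, 76.5 and 69.4 CPM in TDP-43 after DMSO. It was at 0, 154 and 17.9 CPM in sham after C13 and at 220, 206 and 246 CPM in TDP-43 after C13. With TDP-43 it was thus lower than with sham under DMSO and higher under C13, with no overlap in either arm. The nascent counts in sham after C13 were only 0, 87 and 9 reads, all multiples of 3. The count of 9 came from replicate 3, a library that stood apart. The log2 fold changes were -1.27 ± 1.05 and 1.97 ± 1.08 (SE, edgeR, adjusted p = 0.99995 and 0.674). The test of their difference, the interaction, gave 3.24 ± 1.51 (SE, edgeR, adjusted p = 0.646). In total RNA Aurka was at 133, 133 and 135 CPM in sham after DMSO, 81.1, 97.7 and 120 CPM in TDP-43 after DMSO, 133, 102 and 88.8 CPM in sham after C13, and 111, 101 and 114 CPM in TDP-43 after C13.

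The interaction of C13 and TDP-43 was called for 0 of 9 members in nascent and 0 of 10 in total counts, against 0% of all genes in each table, and DESeq2 called 0 members. At an unadjusted p under 0.05, edgeR counted 2 members in nascent RNA, Ccnd3 and Aurka, and 1 in total RNA, Ccnd3, against 7.59% of nascent and 7.96% of total genes. For Ccnd3 the interaction was -1.96 ± 0.71 in nascent RNA (SE; edgeR, adjusted p = 0.55) and -0.56 ± 0.23 in total RNA (SE; edgeR, adjusted p = 0.532). The other members had interactions in total RNA from -0.82 (Cdc20) to 0.45 (Ccnb2), and in nascent RNA, besides Ccnd3, Aurka and the untested Ccne1, from -1.81 (Cdc20) to 1.09 (Ccnb1). Ccnd2 differed little in any comparison of total RNA, with log2 fold changes of -0.22 to 0.11 between pairs of groups.

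Other genes of the cell cycle were counted in 7 lists, and edgeR called 0 of them higher and 0 lower in total RNA for TDP-43 or for C13 averaged over the other factor, as did DESeq2. At an unadjusted p under 0.05, edgeR counted 2 RB, E2F and DREAM regulators and 2 other G2 and M genes for TDP-43, 1 of each of these lists for C13, and 0 in the other lists, where 4.73% of all tested genes for TDP-43 and 4.08% for C13 had such a p. The lists were 5 CDK catalytic subunits (5 tested), 7 CDK inhibitors (6 tested), 19 regulators of the RB, E2F and DREAM system (18 tested), 18 S-phase genes (18 tested), 30 other G2 and M genes (30 tested), 18 genes of the anaphase-promoting complex (18 tested) and 16 other cyclins (13 tested). For TDP-43, the median log2 fold change of these lists was 0.09, 0.17, -0.14, 0.00, -0.02, -0.07 and 0.02 in that order, and -0.01 over all tested genes. For C13 it was -0.18, -0.01, 0.19, 0.02, -0.09, 0.01 and 0.00, and -0.01 over all tested genes.

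The genes with the smallest p-values in these lists included known regulators of the mitotic members. Foxm1, the transcription factor of G2 genes, was at 29.1 ± 1.40 CPM in sham after DMSO, 21.1 ± 1.92 in TDP-43 after DMSO, 34.4 ± 6.06 in sham after C13 and 25.8 ± 1.10 in TDP-43 after C13 (SD, n = 3 each). Its log2 fold change with TDP-43 was -0.44 ± 0.17 (SE; edgeR, adjusted p = 0.948). Rbl2, a DREAM pocket protein, had -0.97 ± 0.40, Prc1, a spindle midzone protein, -0.36 ± 0.15, and Cdc25b, a phosphatase that activates CDK1, -0.31 ± 0.14 (SE; edgeR, adjusted p = 0.948 for each). Cenpe, from the same list as Prc1 and Cdc25b, went the other way at 0.51 ± 0.24 (SE, edgeR, adjusted p = 0.948). Of the 30 genes of that list, 12 were higher and 18 lower with TDP-43. In the list of RB, E2F and DREAM regulators, which holds Foxm1 and Rbl2, 8 were higher and 10 lower. Rbl2 was low, at group means of 3.59 to 11.4 CPM. With C13, 12 RB, E2F and DREAM regulators were higher and 6 lower, and 10 other G2 and M genes were higher and 20 lower. With C13, Lin54, the DREAM subunit that binds the cell cycle homology region, had 0.80 ± 0.26, and Cks2, a CDK1 accessory protein, -0.48 ± 0.19 (SE; edgeR, adjusted p = 0.999 for both). Cdk6, the partner of the D-type cyclins with the higher level here (410 to 532 CPM as group means), had 0.19 ± 0.13 with TDP-43 and -0.18 ± 0.13 with C13. Cdkn1a, which encodes the CDK inhibitor p21, had 0.27 ± 0.16 with TDP-43 and -0.12 ± 0.16 with C13.

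The members did not vary as a block across the 12 libraries. Pearson correlations of log2 CPM in total RNA, given as a description over libraries that include the 4 groups, ran from -0.49 to 0.77 among the 15 pairs of mitotic genes, with a median of -0.11 and 7 pairs above 0. Cdc20 and Plk1 had the highest, 0.77. Ccnd2 and Ccnd3 had the lowest of all member pairs, -0.65. Of 5648 genes with a mean of at least 20 CPM, those most like Ccnd1 were Pds5a (0.86), Zmynd11 (0.86), Clasp1 (0.86), Mpzl1 (0.86) and Ppp4r1 (0.86). Those most like the mean profile of the 6 mitotic genes were Plin3 (0.89), Gcn1l1 (0.88), Nudt5 (0.86), Plekhm2 (0.85) and Pgm1 (0.83). These genes were picked as the highest among 5648 over only 12 libraries, and a shared regulation was not tested.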

How the data were processed

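RNA of 12 libraries was alkylated with iodoacetamide, which makes 4-thiouridine read as a base change, and sequenced from messenger 3′ ends (QuantSeq), per the labels' protocols. What the authors deposited are raw counts, in a nascent and a total table with 30994 Ensembl genes each. Per the submitters' processing notes, GRCm38 was the genome build. Aligner, counter and the definition of a nascent read: not given in the sources used here. Symbols came from a GRCm38 annotation, which matched 30940 identifiers. The members and lists were chosen with earlier results of these data known.

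Genes were filtered with filterByExpr, leaving 7078 nascent and 11827 total genes, normalised by TMM separately in each table, and tested with edgeR 4.0.16 under R 4.3.3 (quasi-likelihood test, all 12 libraries in 1 fit of 4 group means, Benjamini-Hochberg adjustment over all tested genes, threshold 0.05). CPM were computed on TMM-normalised library sizes, and scaling within the nascent table removes any global change in labelling. For the share of single genes, nascent and other (total less nascent) counts entered 1 joint edgeR fit, with a term for each library. Nascent and other counts were each scaled by their own TMM factors. The fit thus sets a gene against the read-weighted share of its library after that scaling, and was planned as a comparison with the typical gene. Since the median gene lay below 0, centring on that gene was added. Counts of libraries above or below the library, and ratios to it, used the unscaled share. Alternatives were DESeq2 1.42.0 and its size factors, no filter, library totals, a replicate block, and leaving out each library. The scripts were tested on simulated data.

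All members were tested in each comparison that their counts allowed; those given as ranges are in the plot of fold changes. From each further list, values are given for some of the genes that a rule named: the 4 with the smallest p for TDP-43 and the 2 with the smallest p for C13 in total RNA. Counts of replicates always differed by more than sampling noise (lowest chi-square per degree of freedom 70.5).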

Additional observations from a re-analysis of the deposited data

How the results depend on the processing

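Over all alternatives, 0 of 1197 nascent values of the members changed their call, and 88 changed sign. Of 1260 total values, 1 was newly called (Ccnd3 with C13 and sham by DESeq2, adjusted p = 0.0177) and 72 changed sign. Of the share values, 5 were newly called, 2 lost their call and 43 changed sign. With each table's counts divided by its own common factor, Ccnd3 reversed to -2.06, and 0 genes were called for a TDP-43 shift in share. The lost calls were those of Ccnb1 without the 2 libraries that stood apart and against the median gene.

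The counts of genes called over the whole table moved more. In the order C13 averaged, C13 with sham, C13 with TDP-43, TDP-43 averaged, TDP-43 under DMSO, TDP-43 under C13 and interaction, DESeq2 called 15, 28, 15, 19, 4, 75 and 55 nascent genes and 35, 77, 53, 48, 16, 144 and 146 total genes. Without the filter, edgeR called 11, 29, 10, 18, 6, 30 and 38 nascent genes and 18, 59, 33, 33, 10, 124 and 124 total genes. The cause was not tested. Leaving out 1 library gave 0 to 1 calls in nascent counts for TDP-43 averaged, TDP-43 under C13 and the interaction. In total counts it gave 0 to 2 for C13 averaged and for C13 with sham, 0 to 1 for TDP-43 averaged, 0 to 4 for TDP-43 under C13 and 0 to 3 for the interaction. For a shift in nascent share it gave 0 to 1 for C13 and for TDP-43. Without the 2 libraries that stood apart, 1 total gene was called for TDP-43 averaged and 1 for TDP-43 under C13. With counts divided by the common factor of a gene, 2 total genes were called for the interaction. With library totals, 0 genes were called for a TDP-43 shift in share. Against the library, 1936 genes were called lower in share, and 3010 where each library needed at least 50 total reads. Against the median gene, 1207 were higher and 301 lower.

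The log2 ratio of the D-type to the mitotic share was 0.64 to 0.85 when 1 library was left out, 0.75 as the median of the genes' own shares and 0.05 with the common factor of each table divided out. Deviations of samples with the same replicate number correlated at -0.028 to 0.060 in nascent counts, over 0.1 in 0 of 18 pairs. In total counts they correlated at -0.069 to 0.233, over 0.1 in 5 of 18 pairs. Pairs with different numbers ran from -0.052 to 0.048 in nascent and from -0.293 to 0.278 in total counts. With the replicate number as a block, 0 nascent genes were called for TDP-43 averaged and 2 total genes for the interaction. Depth limits Ccne1, with 90 nascent reads in all.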

Other observations

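Nascent shares of the wider cell cycle lists, which belong in no comparison above, were also computed against the whole library. Of 28 other G2 and M genes tested, edgeR called 10 lower and 0 higher, with a median log2 ratio of -0.93, where 27.4% of all tested genes were called lower, 7.78% higher, and the median was -0.74. Of 17 S-phase genes, 5 were called lower and 0 higher, a share near that of all genes, with a median of -0.69. Of 17 genes of the anaphase-promoting complex, 7 were lower and 1 higher, with a median of -1.70. Cdk1, the catalytic partner of the B-type cyclins, was lower at -0.95 ± 0.23 (SE; edgeR, adjusted p = 0.00667), and E2f1, an E2F transcription factor, at -1.13 ± 0.22 (SE; edgeR, adjusted p = 0.00151).

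Among 9 other cyclins tested, 2 were called higher and 1 lower. Ccnl1, a cyclin linked to RNA splicing, had 35.2% of its reads nascent over all libraries and a log2 ratio of 3.76 ± 0.41 (SE; edgeR, adjusted p = 7.59e-06). Ccnt1, the cyclin of the elongation factor P-TEFb, had 10.4% and 1.73 ± 0.36 (SE; edgeR, adjusted p = 0.00262). Ccnk, the partner of CDK12 and CDK13, had 1.87% and -1.26 ± 0.33 (SE; edgeR, adjusted p = 0.00969). The 1 higher gene of the anaphase-promoting list was Ube2s, a ubiquitin-conjugating enzyme, with 15.8% and 1.81 ± 0.52 (SE; edgeR, adjusted p = 0.016). These genes were chosen after their values were seen.

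Most of these calls depended on the reference. Against the median tested gene, 7 other G2 and M genes were called higher and 0 lower, among them Cdc25b (0.88), Cks1b (0.96) and Pttg1 (1.19), and 4 S-phase genes were higher (Cdt1, Mcm3, Mcm5 and Pcna) and 1 lower (Mcm6, -0.99). Cdk6, which D-type cyclins bind, was higher at 1.12 (edgeR, adjusted p = 7.07e-05). Ccnl1, Ccnt1 and Ube2s were called higher against both references, and Mcm6, Anapc5, Anapc7 and Anapc13 lower against both.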
